A study of Mus musculus with 3 samples.

Results

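The mRNAs followed here were those of 9 genes that build or carry the L-selectin ligands of high endothelial venules in mouse Peyer's patches (PP): the sulfotransferases *Chst2* and *Chst4*, the core 2 branching enzyme *Gcnt1*, the core 1 extension enzyme *B3gnt3*, the fucosyltransferases *Fut7* and *Fut4*, and the sialomucin scaffolds *Glycam1*, *Cd34* and *Podxl*. They were taken by gene symbol, 1 row for each symbol, and make up 9 of the 31053 genes counted in every library. All 9 symbols were found in each of the 3 single-cell libraries.

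L-selectin on circulating lymphocytes binds sulfated, sialylated and fucosylated sugar chains that hang from mucin-like proteins on the luminal face of high endothelial cells (HEC). The chains are built in the Golgi on serine and threonine residues of the scaffold: a core is branched by GCNT1 or extended by B3GNT3, sulfate is placed on N-acetylglucosamine by CHST2 and CHST4, and fucose is added last, by FUT7 with a smaller part played by FUT4. In PP venules MAdCAM-1 is present as well and serves as the ligand of the integrin alpha4beta7.

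One library came from C57BL/6 mice labelled WT (the control library), and 2 libraries came from EC-iCOUPOE mice of the genotype CDH5(PAC)CreERT2;COUP-TFIIOE/OE, in which tamoxifen switches on the transcription factor COUP-TFII, the product of *Nr2f2*, from a transgene. The Cre is driven by the *Cdh5* promoter and is therefore not limited to 1 kind of endothelium, and the study's methods name Cre-negative littermates as controls. All mice were 6 to 10 weeks old. The methods place isolation from EC-iCOUPOE and control mice at 14 to 19 days after tamoxifen. The paper's results name WT mice beside tamoxifen-treated Cre-negative controls, and that wording does not settle whether the WT mice were treated. PP cells of both sexes were sorted and run together on the 10x Chromium platform. The number of mice in each library was not given in the sources used here. With 1 control library no test between genotypes was possible, so each EC-iCOUPOE library was set against the control library and a gene was called changed when it differed at least 2-fold in the same direction in both, with 50 or more UMIs (unique molecular identifiers, 1 for each captured mRNA molecule) in at least 1 of the 3 libraries.

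The control library held 6080 barcodes and 17341398 UMIs, EC-iCOUPOE replicate 1 held 4959 barcodes and 17417260 UMIs, and EC-iCOUPOE replicate 2 held 1441 barcodes and 3548983 UMIs. The control library and EC-iCOUPOE replicate 2 shared 12 barcodes, and the other pairs shared 0. Clusters were named from marker genes that leave out the 9 genes, and the names used here stand for HEC-like, PCV-like (postcapillary venule), CapEC-like (capillary), arterial EC-like and CRP-like (capillary resident progenitor) cells. Arterial EC pooled cluster 5, led by *Kcne3*, *Mgp* and *Gja5* (382, 123 and 56 cells in the 3 libraries), and cluster 11, led by *Bmp2*, *Col8a1* and *Pi16* (119, 85 and 59 cells), which had no marker of the arterial list among its 10 leading genes. The sorted cells were not blood endothelium alone: the control library held 2166 fibroblast-like cells, against 6 and 4 in the EC-iCOUPOE libraries, and EC-iCOUPOE replicate 1 held 909 lymphatic EC-like cells, against 2 in the control library. *Nr2f2* reached 13.5 CPM (the UMIs of the gene as parts in 1000000 of all UMIs of that cell type) in control CapEC and 2024 and 1147 CPM in the EC-iCOUPOE libraries.

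HEC numbered 459 in the control library, 108 in EC-iCOUPOE replicate 1 and 5 in EC-iCOUPOE replicate 2. That was 18.8%, 3.25% and 0.517% of blood endothelial cells. These shares leave out the unnamed cluster 7 (19, 414 and 20 cells), which scored highest, but weakly, for the HEC markers. With 5 cells, HEC of EC-iCOUPOE replicate 2 gave no usable level for any of the 9 genes, and HEC values below are those of the control library and EC-iCOUPOE replicate 1. All 5 HEC markers were detected in the HEC cluster, and *Glycam1* and *Fut7* were among its 10 leading genes although neither was used for clustering. All intervals are 95% and cover counting error only.

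*Fut7*, *Gcnt1* and *Glycam1* were the members with over 50 UMIs most concentrated in HEC, and *B3gnt3* alone was called higher with COUP-TFII outside HEC. Their upstream sequences are given for these reasons, as the 250 bases before the RefSeq start, 5′ to 3′ on the strand of the gene, from build GRCm38.p6: *Glycam1* at chr15:103565082-103565331 (minus strand), *Fut7* at chr2:25422992-25423241 (plus strand), *Gcnt1* at chr19:17372845-17373094 (minus strand) and *B3gnt3* at chr8:71701801-71702050 (minus strand). Capitals mark a match to AAGTG or its reverse complement CACTT, the core recognised by NKX2 factors.
Glycam1: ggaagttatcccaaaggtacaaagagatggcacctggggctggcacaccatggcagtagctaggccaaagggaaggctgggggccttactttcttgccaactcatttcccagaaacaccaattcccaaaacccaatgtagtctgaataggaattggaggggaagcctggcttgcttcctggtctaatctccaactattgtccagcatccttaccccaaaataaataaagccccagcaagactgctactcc
Fut7: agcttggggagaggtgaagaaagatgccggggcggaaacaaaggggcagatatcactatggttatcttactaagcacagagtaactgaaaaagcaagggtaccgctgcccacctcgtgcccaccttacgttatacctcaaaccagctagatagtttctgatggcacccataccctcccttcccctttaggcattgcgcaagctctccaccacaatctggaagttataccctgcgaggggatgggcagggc
Gcnt1: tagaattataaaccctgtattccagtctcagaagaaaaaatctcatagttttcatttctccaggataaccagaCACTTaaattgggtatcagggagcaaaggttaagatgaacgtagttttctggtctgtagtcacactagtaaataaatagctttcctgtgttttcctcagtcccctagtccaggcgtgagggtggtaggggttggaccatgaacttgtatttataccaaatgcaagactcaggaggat
B3gnt3: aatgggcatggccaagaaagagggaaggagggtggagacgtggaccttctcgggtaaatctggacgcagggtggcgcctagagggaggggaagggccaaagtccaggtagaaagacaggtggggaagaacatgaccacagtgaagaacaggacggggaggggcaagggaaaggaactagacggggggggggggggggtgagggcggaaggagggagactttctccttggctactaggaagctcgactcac
Upstream sequence was found for 8 of the 9 members, all but *Podxl*. Of those, *Gcnt1* held AAGTG once, 177 to 173 bases before the start on the opposite strand, and *Cd34* held it at 2 places, while 40.7% of 32851 promoters of the same length held it. AGGTCA, a form of the half-site bound by COUP-TFII, was searched on both strands and was found in 0 of the 8 and in 14.0% of all promoters. The paper used a looser motif, GGTC followed by A or G, whose matches were not counted here. Such matches do occur, for example as TGACC on the opposite strand upstream of *Chst4*, *Cd34* and *B3gnt3*. A lack of COUP-TFII sites can therefore not be read from the AGGTCA search. No match says only that these letters are not in this window.

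**Figure D1:**
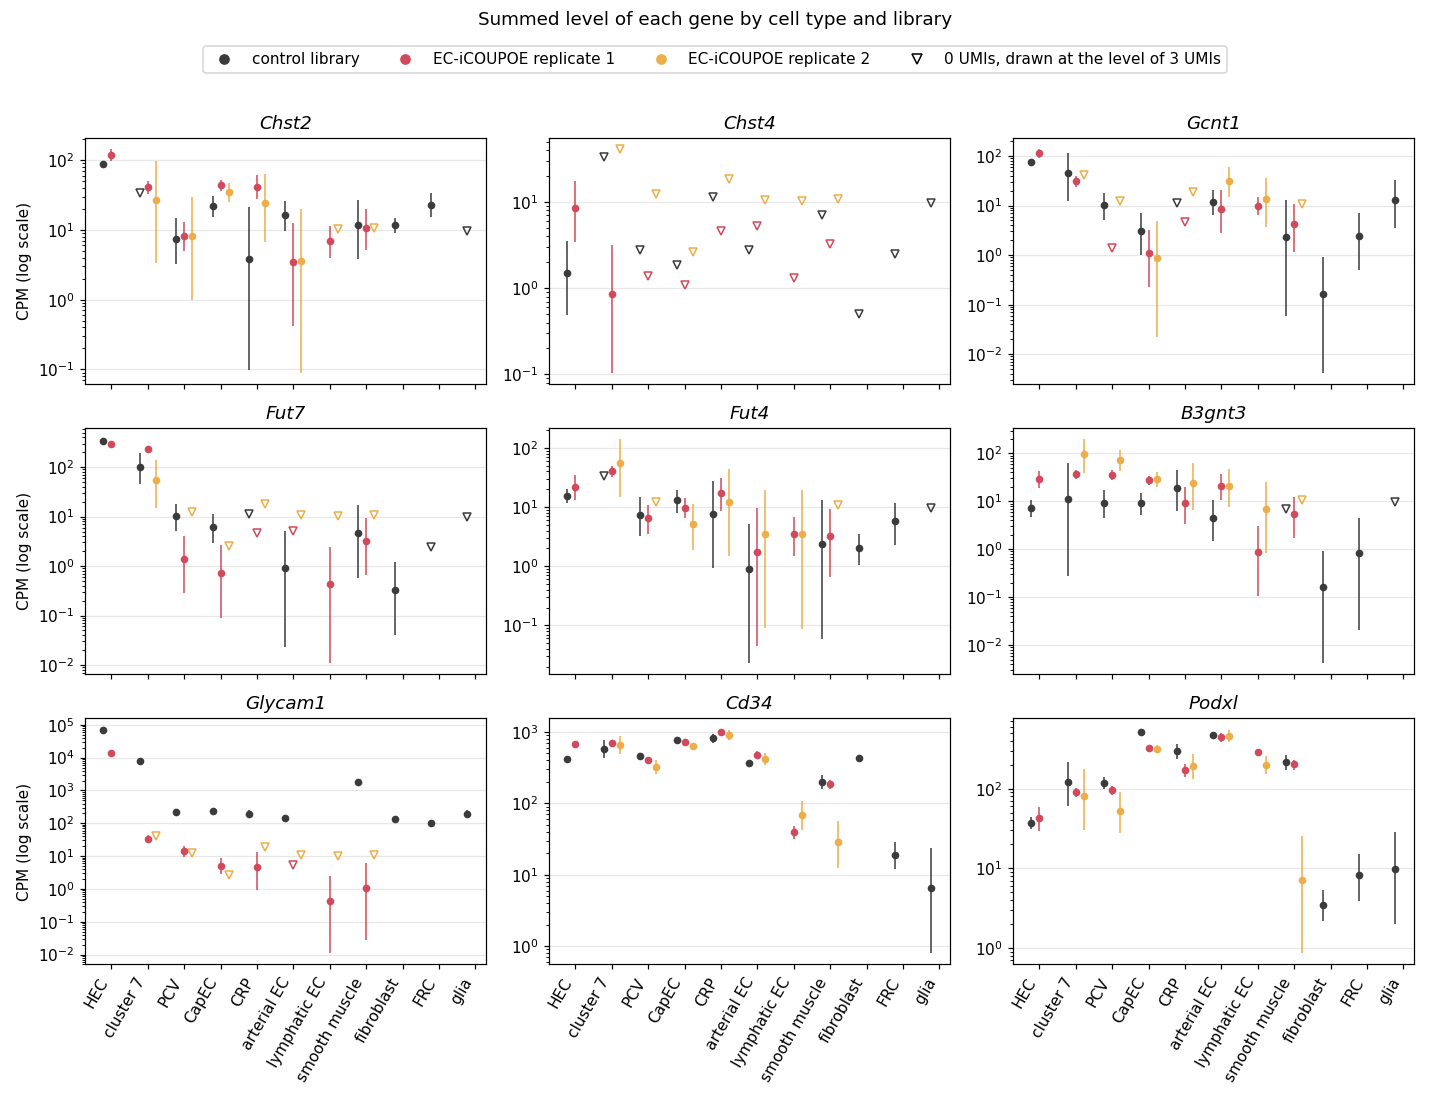
Summed level of each of the 9 genes (CPM, log axis) in the blood endothelial and stromal cell types of each library, with 95% counting intervals. Of the named types HEC stood highest for *Fut7* and *Gcnt1* in the control library and EC-iCOUPOE replicate 1, *Podxl* stood lower in HEC than in CapEC, and *Glycam1* of the control library was seen in every cell type.

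*Fut7*, which encodes the fucosyltransferase that completes the sialyl Lewis X cap (chr2:25423267-25426374, plus strand, GRCm38), was the enzyme gene with the clearest restriction. In HEC it reached 345 CPM (interval 326 to 366, 1152 UMIs) in the control library and 299 CPM (263 to 339, 247 UMIs) in EC-iCOUPOE replicate 1. PCV gave 10.2, 1.38 and 0 CPM in the control library and EC-iCOUPOE replicates 1 and 2, and CapEC gave 6.16, 0.726 and 0 CPM. In the control library PCV and CapEC had overlapping intervals, arterial EC held 1 UMI at 0.911 CPM, and CRP held none. HEC accounted for 88.9% of the *Fut7* UMIs of the control library.

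*Gcnt1* encodes the enzyme that starts the core 2 branch (chr19:17326141-17372844, minus strand). HEC held 75.6 CPM (66.5 to 85.5) in the control library and 113 CPM (90.8 to 138) in EC-iCOUPOE replicate 1, whereas PCV held 10.2, 0 and 0 CPM and CapEC 3.08, 1.09 and 0.868 CPM. Arterial EC showed *Gcnt1* at 11.8, 8.68 and 31.8 CPM from 13, 5 and 9 UMIs, of which cluster 11 held 10, 5 and 9 and the *Gja5*-rich cluster 5 held 3, 0 and 0. These arterial and PCV levels were not separable in the control library, where their counting intervals overlapped. HEC held 79.5% of the *Gcnt1* UMIs of the control library and 43.1% of those of EC-iCOUPOE replicate 1.

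*Chst2* encodes an N-acetylglucosamine-6-O-sulfotransferase found in many tissues (chr9:95399292-95406722, minus strand). Among the named types it was highest in HEC too, at 87.3 CPM (77.5 to 97.9) and 119 CPM (96.3 to 145), but was also counted in CapEC at 22.2, 43.9 and 34.7 CPM. PCV showed 7.43, 8.30 and 8.14 CPM, well inside their counting intervals. In the control library the fibroblastic reticular cell-like cluster, at 23.1 CPM (15.3 to 33.4), overlapped CapEC, and fibroblasts held 11.7 CPM when pooled. The fibroblast cluster led by *Nbl1*, *Tmem119* and *Rbp4* (99 control cells) held 91.8 CPM (57.5 to 139, 22 UMIs), an interval that overlapped that of HEC. The other fibroblast clusters held 10.1, 6.12 and 10.8 CPM. Within CapEC the *Car4*-rich cluster 6 stood highest, of the clusters with 10 or more cells, in each library, at 35.7, 120 and 149 CPM, where *Car4* encodes a carbonic anhydrase of capillaries.

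*Chst4*, the sulfotransferase gene regarded as specific to high endothelium (chr8:110029153-110039740, minus strand), was at the edge of detection with 16 UMIs in all. HEC held 5 UMIs in the control library and 7 in EC-iCOUPOE replicate 1, with intervals of 0.487 to 3.50 CPM and 3.41 to 17.5 CPM. The remaining UMIs were 2 in the unnamed cluster 7 and 2 in the cluster of dividing cells, all in EC-iCOUPOE replicate 1. CapEC held 0 UMIs in all 3 libraries, which allowed up to 2.27, 1.34 and 3.20 CPM by the exact interval. A difference between HEC and CapEC was therefore not detectable in the control library, while in EC-iCOUPOE replicate 1 the HEC interval lay above that limit.

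*Fut4*, the second fucosyltransferase gene (chr9:14748320-14752393, minus strand), was low and spread over several types. HEC held 15.6 CPM (11.6 to 20.4) in the control library and 21.8 CPM (12.9 to 34.4) in EC-iCOUPOE replicate 1. CapEC followed with 12.9, 9.81 and 5.21 CPM and PCV with 7.43, 6.45 and 0 CPM, and the control intervals of HEC and CapEC overlapped. The unnamed cluster 7 of the EC-iCOUPOE libraries held 40.2 and 54.6 CPM, from 93 and 4 UMIs.

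*B3gnt3*, which encodes the enzyme that extends core 1 chains (chr8:71690756-71701789, minus strand, with *Gm45756* on the other strand), showed no concentration in HEC. Control HEC held 7.20 CPM (4.61 to 10.7), against 9.29 CPM in PCV, 9.23 in CapEC, 4.56 in arterial EC and 19.2 in CRP, and all of these intervals overlapped. Control fibroblasts held 1 UMI, or 0.167 CPM, with an upper bound of 0.931 CPM that lay under the intervals of all 5 endothelial types. The unnamed cluster 9, the PCV-like cells outside the PCV cluster, ranked 1 of 14 types for *B3gnt3* in the control library, at 35.2 CPM from 10 UMIs. In EC-iCOUPOE replicate 1, HEC held 29.0 CPM and PCV 35.5 CPM.

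After each cell was thinned to 1000 UMIs so that cells of unequal depth could be compared, none of the 6 enzyme mRNAs was found in 59.0% of control HEC and 64.8% of HEC of EC-iCOUPOE replicate 1. The same share lay between 91.6% and 96.6% in PCV, CapEC and arterial EC. A thinned control HEC held a mean of 0.458 of the 6 enzymes, so that joint detection in 1 cell could not be read at this depth. *Fut7* alone was found in 27.5% of thinned control HEC and in 17.6% of thinned HEC of EC-iCOUPOE replicate 1.

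*Glycam1*, a secreted mucin of high endothelium and of the lactating mammary gland (chr15:103562759-103565081, minus strand), was by far the most abundant transcript among the members in HEC. Control HEC held 71108 CPM (70822 to 71395, 237114 UMIs), and HEC of EC-iCOUPOE replicate 1 held 13425 CPM (13177 to 13678, 11093 UMIs). The 5 HEC of EC-iCOUPOE replicate 2 held all 13 *Glycam1* UMIs of that library. In single cells of the control library *Glycam1* made up a median of 5.18% of the UMIs of an HEC, with quartiles of 1.46% and 9.70% and a highest value of 30.2%. In EC-iCOUPOE replicate 1 the median was 0.388%, with quartiles of 0.0210% and 1.21%. *Glycam1* made up more than 1% of the UMIs in 78.2% of control HEC and in 26.9% of HEC of EC-iCOUPOE replicate 1.

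**Figure D2:**
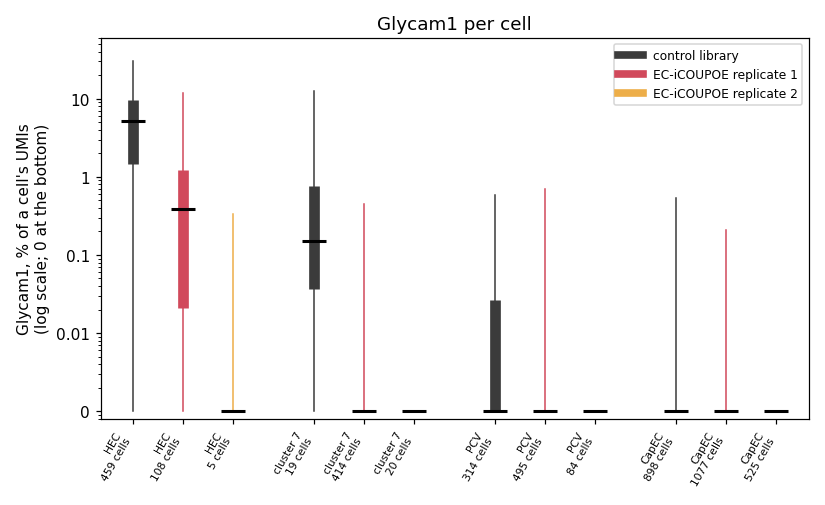
Share of a cell's UMIs that came from *Glycam1* (percent) in HEC and other cells of each library, with the quartiles as a bar, the median as a tick and the range as a line. The median HEC lay at 5.18% in the control library and at 0.388% in EC-iCOUPOE replicate 1.

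Outside HEC, cluster 7 and the cluster of dividing cells, *Glycam1* of the control library stood at a background level. Cell types that should lack it held 132 CPM (fibroblasts), 106 CPM (fibroblastic reticular cells), 196 CPM (glia) and 245 CPM (lymphocytes), with a median of 196 CPM over 5 non-endothelial types. CapEC at 240 CPM, PCV at 218 CPM, CRP at 192 CPM and arterial EC at 147 CPM lay in the same range. The CapEC interval (217 to 265 CPM) overlapped that of glia (150 to 252). It lay above those of fibroblasts (123 to 142) and fibroblastic reticular cells (88.1 to 126). A *Glycam1* UMI was found, after thinning, in 15.0% of CapEC, 13.1% of PCV and 13.2% of arterial EC, against 94.3% of HEC. The share was 7.26% in fibroblastic reticular cells, 11.9% in fibroblasts and 17.1% in glia. Median depth before thinning was 2649 UMIs in fibroblasts, 1385 in glia and 7169 in HEC of the control library. *Glycam1* in control PCV, CapEC, arterial EC and CRP was therefore read as background and not as expression. Whether some expression added to these levels was not tested.

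The proportion of *Glycam1* to *Madcam1*, another abundant HEC mRNA, was examined because free RNA from 1 source keeps its genes in 1 ratio. *Glycam1* made up 85.1% of the summed *Glycam1* and *Madcam1* UMIs in control HEC, 83.8% in fibroblasts and 84.5% in glia, but 46.2% in fibroblastic reticular cells. The same share was 44.1% in CapEC and 4.86% in PCV, where *Madcam1* itself stood at 304 and 4276 CPM. Smooth muscle held 1765 CPM of *Glycam1* in the control library, which fell to 289 CPM when a single cell with 6.31% *Glycam1* was left out. The EC-iCOUPOE libraries had little background: CapEC held 5.08 and 0 CPM, PCV 13.8 and 0 CPM, and smooth muscle 1.07 and 0 CPM. Lymphocytes of EC-iCOUPOE replicate 1 held 1568 CPM, but 29 of these 31 cells held 0 *Glycam1* UMIs.

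**Figure D3:**
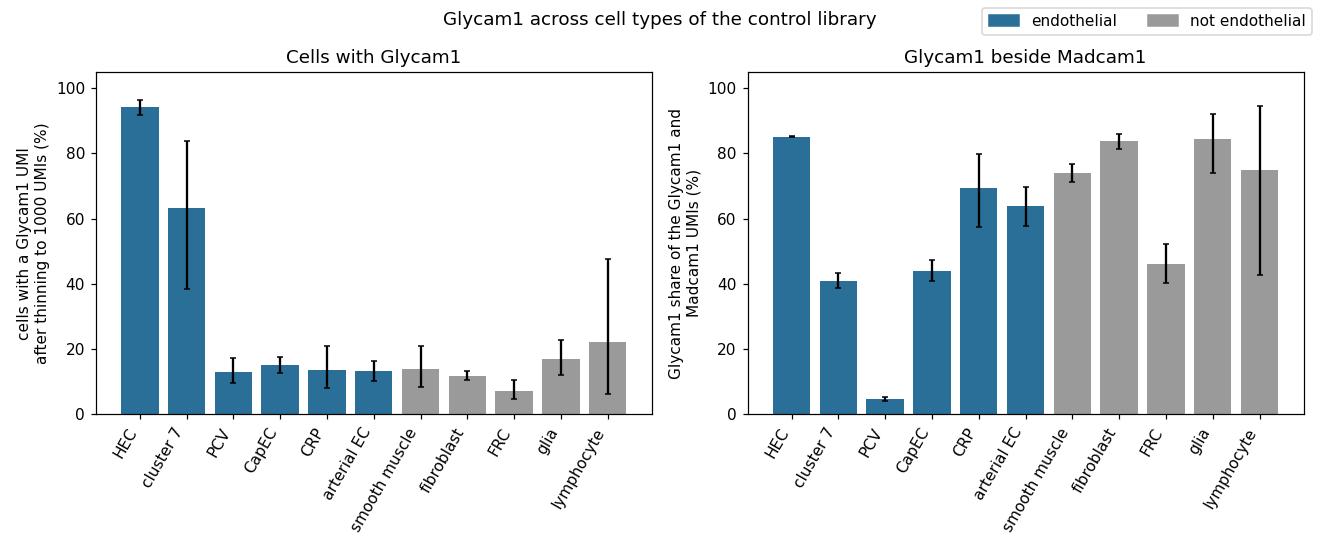
*Glycam1* across cell types of the control library, on linear axes, with 95% intervals. The left panel gives the percentage of thinned cells with a *Glycam1* UMI. The right panel gives *Glycam1* as a percentage of the summed *Glycam1* and *Madcam1* UMIs. A *Glycam1* UMI was found in 15.0% of CapEC, 13.1% of PCV, 13.2% of arterial EC and 13.7% of CRP. The share was 7.26% in fibroblastic reticular cells, 11.9% in fibroblasts, 17.1% in glia and 22.2% in lymphocytes.

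*Cd34*, a transmembrane sialomucin made by blood endothelium in general and by many fibroblasts (chr1:194938819-194961279, plus strand, with *Gm16897* on the other strand), did not mark HEC. It reached 412 CPM (391 to 435) in control HEC and 674 CPM (619 to 732) in HEC of EC-iCOUPOE replicate 1. Of the named blood endothelial types CRP and CapEC held the highest levels, at 809, 996 and 905 CPM in CRP and at 772, 719 and 638 CPM in CapEC. PCV held 464, 399 and 321 CPM and arterial EC 365, 479 and 417 CPM. In the control library the order was CRP and CapEC, whose intervals overlapped, then PCV and HEC, whose intervals also overlapped, with the arterial interval reaching into that of HEC. Control fibroblasts held 431 CPM and fibroblastic reticular cells 19.0 CPM, and lymphatic EC held 39.4 and 68.9 CPM in the EC-iCOUPOE libraries.

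*Podxl* encodes podocalyxin, a sialomucin of podocytes and vascular endothelium (chr6:31519488-31563981, minus strand), and was low in HEC. It stood at 37.2 CPM (30.9 to 44.3) in control HEC and 42.4 CPM (29.5 to 58.9) in HEC of EC-iCOUPOE replicate 1. CapEC held 516, 322 and 320 CPM, arterial EC 475, 444 and 463 CPM, CRP 295, 171 and 196 CPM, and PCV 118, 95.4 and 52.9 CPM. Control CapEC and arterial EC overlapped, and the other steps of this order did not. Lymphatic EC held 292 and 200 CPM in the EC-iCOUPOE libraries, and fibroblasts held 3.51 CPM. In smooth muscle *Podxl* and *Cd34* were read at 215, 202 and 7.11 CPM and at 198, 183 and 28.5 CPM, and the summed endothelial markers moved with them there, at 2204, 2447 and 569 CPM.

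Set against PCV within the control library and within EC-iCOUPOE replicate 1, 5 of the 8 members with enough UMIs were at least 2-fold higher in HEC in both: *Chst2*, *Gcnt1*, *Fut7*, *Fut4* and *Glycam1*. By the same rule 3.31% of 6465 genes were higher and 7.64% were lower. The log2 ratio of HEC to PCV was 5.08 and 7.76 for *Fut7*, 3.55 and 3.84 for *Chst2* and 1.07 and 1.75 for *Fut4*. The control *Fut4* ratio came from 52 and 8 UMIs, with an interval of -0.01 to 2.35 that included 0. For *Glycam1*, whose PCV level was background in the control library, the ratio of HEC to PCV was 8.35 and 9.92. For *Gcnt1* it was 2.89 in the control library and at least 6.35 in EC-iCOUPOE replicate 1, where PCV held 0 UMIs. *Podxl* was lower in HEC, with ratios of -1.67 and -1.17, and *Cd34* (-0.17 and 0.76) and *B3gnt3* (-0.37 and -0.29) did not reach 2-fold. The median log2 ratio was 2.55 over the 8 members and -0.20 over all genes tested. The UMI minimum could be met in either type. *Chst2*, *Gcnt1*, *Fut7* and *Fut4* met the minimum in HEC alone, with 8, 11, 11 and 8 UMIs in control PCV. The member median and the count of higher members therefore lean towards genes high in HEC. How far this set the distance from all genes was not tested. As clusters were cut from the same cells, these ratios are a description with no test.

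Against CapEC, 4 of the 8 members were higher in HEC, namely *Chst2*, *Gcnt1*, *Fut7* and *Glycam1*, and *Podxl* was lower, while 4.13% of 6978 genes were higher and 9.56% lower. Here *Gcnt1*, *Fut7* and *Fut4* met the UMI minimum in HEC alone. Between PCV and CapEC, compared in all 3 libraries, *Chst2* and *Podxl* were lower in PCV among 5 members tested and 0 were higher, where 2.39% of 6621 genes were lower and 2.34% higher. *Chst2* met the UMI minimum only in CapEC of EC-iCOUPOE replicate 1, with 121 UMIs, so this count leans towards genes low in PCV.

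An unnamed cluster carried part of the HEC enzyme set. Cluster 7, led by *Colec12*, *Ltc4s*, *Ltb* and *Lyve1*, held 19, 414 and 20 cells and scored highest, but weakly, for the HEC markers. *Fut7* there reached 100 CPM from 9 UMIs in the control library, 231 CPM (212 to 251) in EC-iCOUPOE replicate 1 and 54.6 CPM from 4 UMIs in replicate 2. In EC-iCOUPOE replicate 1 this cluster held 61.4% of all *Fut7* UMIs and HEC held 28.4%. *Gcnt1*, at 30.7 CPM, and *Chst2*, at 40.6 CPM, lay below the HEC levels of the same library, and *Fut4*, at 40.2 CPM, lay above that of HEC, with intervals that overlapped (32.5 to 49.3 against 12.9 to 34.4). *Glycam1* stood at 34.2 CPM in EC-iCOUPOE replicate 1 and at 0 in replicate 2, whereas the 19 control cells held 7720 CPM, with a median of 0.149% of UMIs per cell, 4 cells over 1% and 272 of the 695 UMIs in 1 cell. HEC and cluster 7 of EC-iCOUPOE replicate 1 thus stood at 299 and 231 CPM of *Fut7* and at 13425 and 34.2 CPM of *Glycam1*.

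The cluster of dividing cells, which also took in epithelial cells and held 29, 156 and 34 cells, carried the HEC set as well in the control library. *Fut7* stood there at 343 CPM from 90 UMIs, beside 345 CPM in HEC, and at 68.7 and 11.5 CPM in the EC-iCOUPOE libraries. *Chst2* stood at 95.3, 35.5 and 7.64 CPM, *Gcnt1* at 45.8, 12.2 and 7.64 CPM, and *Glycam1* at 26879, 830 and 0 CPM. Which endothelial types divided was not resolved by the clustering, so a different mix of types and a different level within a type cannot be told apart here.

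Within HEC the genotype comparison rested on EC-iCOUPOE replicate 1 alone. It left out cluster 7, with 19 control and 414 replicate 1 cells and *Glycam1* at 7720 and 34.2 CPM. How far that cut set the ratios was not tested. *Nr2f2* stood at 151 CPM in control HEC and at 611 CPM in HEC of EC-iCOUPOE replicate 1, 4.05-fold higher. In that library PCV held 2156 CPM of *Nr2f2*, CapEC 2024, CRP 1559 and arterial EC 1236 CPM. *Glycam1* fell 5.30-fold, a log2 ratio of -2.41 (interval -2.43 to -2.38), and was the only 1 of 7 members tested that passed 2-fold in either direction, where 4.9% of 5899 genes were lower by that rule and 5.71% higher. The enzyme genes tested did not move with it: the log2 ratio was -0.21 for *Fut7*, 0.57 for *Gcnt1*, 0.44 (0.10 to 0.78) for *Chst2* and 0.48 for *Fut4*. *Cd34* stood at 0.71 and *Podxl* at 0.19. *B3gnt3* had a ratio of 2.01 (1.13 to 2.89) from 24 UMIs in each library, under the minimum for a call. *Chst4* had a ratio of 2.50 (0.63 to 4.50) from 5 and 7 UMIs, also under that minimum. Of the other HEC markers, *Serpina1b* was at 3925 and 304 CPM, *Madcam1* at 12412 and 9237 CPM, *Ccl21a* at 7775 and 9572 CPM, *Enpp2* at 1544 and 1503 CPM and *Ch25h* at 103 and 276 CPM in the control library and EC-iCOUPOE replicate 1. Over all cells with more than 1% *Glycam1*, 388 in the control library of which 359 were HEC and 30 in EC-iCOUPOE replicate 1 of which 29 were HEC, *Fut7* was at 370 and 320 CPM, *Gcnt1* at 81.6 and 128 CPM and *Chst2* at 97.2 and 154 CPM.

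Outside HEC, *B3gnt3* was the only member called higher. In CapEC it rose from 9.23 CPM in the control library (15 UMIs) to 27.6 CPM (76 UMIs) and 28.7 CPM (33 UMIs), with log2 ratios of 1.58 (0.77 to 2.49) and 1.63 (0.71 to 2.62), a mean of 1.61 ± 0.038 (SD, n = 2 EC-iCOUPOE libraries). In PCV it rose from 9.29 CPM (10 UMIs) to 35.5 CPM (77 UMIs) and 73.2 CPM (18 UMIs), with ratios of 1.93 (0.98 to 3.05) and 2.98 (1.79 to 4.26) and a mean of 2.46 ± 0.74. Both ratios of a type share the same control library, so the SD carries none of its error. *B3gnt3* was 1 of 5 members tested in CapEC, where 3.89% of 6448 genes were higher. In PCV it was 1 of 4 tested, where 3.06% of 5454 genes were higher. In both types *B3gnt3* met the UMI minimum in EC-iCOUPOE replicate 1 alone, where it was higher than in the control library. These counts of members therefore lean towards genes higher in EC-iCOUPOE, and how far was not tested. The unnamed cluster 9 (106, 272 and 10 cells) scored highest, but weakly, for the PCV markers. It held *B3gnt3* at 35.2, 43.1 and 39.3 CPM from 10, 44 and 1 UMIs, with ratios of 0.29 and 0.16, below the minimum for a call. Arterial EC gave ratios of 2.19 and 2.22 from 5, 12 and 6 UMIs, below the minimum for a call, and 0 of 3 members tested were higher there, where 2.08% of 3610 genes were. CRP did not share the direction, with -1.04 and 0.35 from 5, 6 and 4 UMIs, and 0 of 3 members tested were higher there, where 5.45% of 2221 genes were. The counting intervals of both libraries lay above that of the control library in CapEC and PCV, and that of replicate 2 overlapped it in arterial EC. Over the members tested the median log2 ratio was -0.19 in CapEC and -0.55 in PCV, beside -0.05 and -0.07 over all genes tested. The members tested in both types included *Glycam1*, whose control levels there were read as background, so these medians partly reflect background.

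The CapEC of the 3 libraries were spread over different clusters. Most EC-iCOUPOE CapEC lay in clusters 1 (8, 538 and 281 cells in the 3 libraries) and 8 (13, 337 and 66 cells), and most control CapEC in clusters 3 (335, 124 and 132 cells) and 6 (424, 40 and 42 cells). Clusters 1 and 8 scored only weakly for the CapEC markers, at mean log2 ratios of 0.15 and 0.32, against 1.08 and 1.80 in clusters 3 and 6. The CapEC genotype ratios thus largely set weakly scored EC-iCOUPOE cells against better scored control cells. *B3gnt3* stood at 6.57 CPM (4 UMIs) in cluster 3 of the control library and at 32.7 CPM (8 UMIs) in that of EC-iCOUPOE replicate 2, with 4 UMIs and an interval of 4.35 to 40.9 CPM in replicate 1, and at 6.22, 0 and 0 CPM in cluster 6. Cluster 1 held 27.9 and 26.8 CPM in the EC-iCOUPOE libraries and had too few control cells for a ratio, and cluster 8 held 30.4 and 44.2 CPM beside 0 UMIs in its 13 control cells, which allowed up to 147 CPM. Cluster 1 was led by haemoglobin genes, whose 4 mRNAs made up 142828 CPM in its 8 control cells and 1.39 and 43.2 CPM in its EC-iCOUPOE cells. Without cluster 1, CapEC gave *B3gnt3* ratios of 1.55 and 1.74, from 15, 36 and 15 UMIs and so below the minimum for a call. How far the share of each cluster set the CapEC value was not tested.

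**Figure D4:**
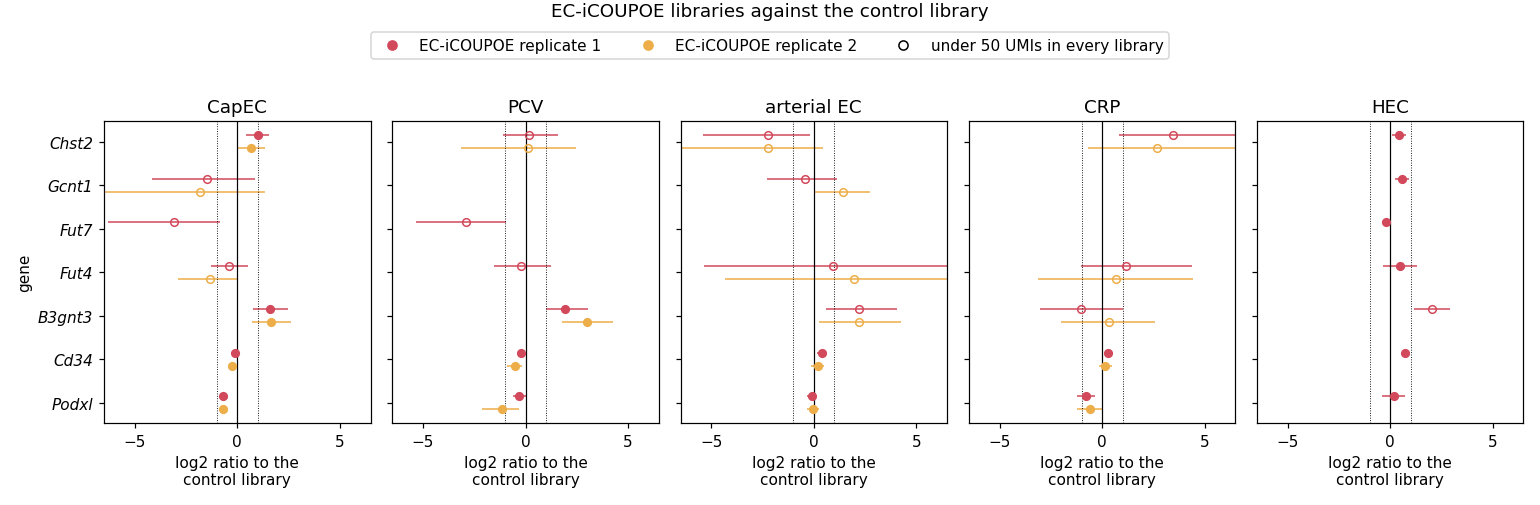
Log2 ratio of each EC-iCOUPOE library to the control library for 7 members in 5 cell types, with exact 95% counting intervals that are drawn to at most 6.5 on either side; HEC shows EC-iCOUPOE replicate 1 alone, and open symbols mark genes under 50 UMIs. *B3gnt3* lay above 1.5 in CapEC, PCV and arterial EC in both libraries, and *Cd34* stayed within 1 of 0 in all 5 types.

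*Chst2* did not pass the rule in CapEC, at 0.99 (0.44 to 1.57) and 0.65 (-0.04 to 1.34). Without cluster 1 the ratios were 1.14 and 1.16 and passed it. In arterial EC they were -2.24 and -2.21, from 18, 2 and 1 UMIs, and in CRP 3.45 and 2.67, from 1, 27 and 4 UMIs, so both rested on counts too low for a call. *Podxl* was lower in CapEC by less than 2-fold, at -0.68 and -0.69, and without cluster 1 at -0.41 and -0.22. In cluster 3, the CapEC cluster with over 100 cells in every library, *Podxl* held 572, 611 and 548 CPM. PCV gave *Podxl* ratios of -0.31 and -1.16, CRP -0.79 and -0.59 and arterial EC -0.10 and -0.04.

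*Cd34* moved by less than 2-fold in every endothelial type named, with ratios of -0.10 and -0.27 in CapEC, -0.22 and -0.53 in PCV, 0.39 and 0.19 in arterial EC and 0.30 and 0.16 in CRP. In cluster 3 of CapEC *Cd34* held 619, 719 and 704 CPM, higher in both EC-iCOUPOE libraries. In arterial EC it held 259, 391 and 295 CPM in cluster 5 and 696, 604 and 520 CPM in cluster 11, whose share of arterial EC was larger in the EC-iCOUPOE libraries. *Glycam1* was called lower in CapEC, PCV, arterial EC and CRP, where 2.33%, 1.89%, 3.16% and 2.7% of the genes tested were lower. In CapEC it was 47.2-fold lower in EC-iCOUPOE replicate 1 and at least 92.2-fold lower in replicate 2, with the 0 UMIs there set to a floor of 3 UMIs. The control levels behind those calls were the background ones given above, so these calls compare levels that types without *Glycam1* expression also showed. *Glycam1* held 258701, 12635 and 13 UMIs in all cells of the 3 libraries. *Fut7* and *Gcnt1* were under 50 UMIs in CapEC, PCV, arterial EC and CRP of every library and were not called there.

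Of 60 other genes of the pathway (sulfate donors and their transport, O-glycan initiation, lactosamine extension, fucose and sialic acid supply, and other sialomucins), 29 could be tested in CapEC, where 2 were higher and 2 lower in both EC-iCOUPOE libraries. *Chst1*, the gene of a sulfotransferase that acts on keratan sulfate, rose from 11.1 CPM to 66.8 and 34.7 CPM (log2 ratios 2.59 and 1.65), and *Madcam1* rose from 304 CPM to 2370 and 2856 CPM. *Slc35b2*, the Golgi carrier of the sulfate donor PAPS, fell from 36.3 CPM to 13.4 and 14.8 CPM (-1.43 and -1.30), and *Galnt7*, an enzyme of O-glycan initiation, from 33.2 CPM to 12.7 and 11.3 CPM (-1.39 and -1.56). Over all 6448 genes tested in CapEC, 3.89% were higher and 2.33% lower. The median log2 ratio of the 29 genes was -0.11, beside -0.05 over all genes tested. In PCV, *B4galt1*, a galactosyltransferase of lactosamine chains, was the only 1 of 24 genes called, at 14.9, 42.9 and 40.7 CPM (1.53 and 1.45). *Madcam1* was the only pathway gene called in arterial EC, of 9 tested, and in CRP, of 4 tested. Over all genes tested, 3.06% were higher in PCV, 2.08% in arterial EC and 5.45% in CRP.

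In HEC against PCV, 3 of 30 pathway genes tested were higher and 4 lower in both libraries. Over all 6465 genes tested, 3.31% were higher and 7.64% lower. *Papss2*, a synthase of the sulfate donor, had log2 ratios of 1.42 and 2.73 and *Galnt12*, another enzyme of O-glycan initiation, 2.14 and 2.98. The other higher gene was *Madcam1*, itself a marker used to name HEC, so its call partly follows from the naming. *Galnt18*, *Gcnt2*, *St3gal1* and the endothelial sialomucin gene *Emcn* were lower. Of 25 tested within HEC, EC-iCOUPOE replicate 1 alone showed *Slc35b2* (-1.32) and *Parm1* (-2.94) lower. *B4galt4* (1.07) and *Cd300lg* (3.97), a sialomucin gene of capillaries, were higher. Over all 5899 genes tested there, 5.71% were higher and 4.9% lower.

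Likeness of pattern was measured as Pearson's r of log2(CPM + 10) over 32 sums of 1 cell type in 1 library, which share libraries and depth and carry no p. The 3 genes most like *Fut7* were *Stra6* (0.93), *Hs3st6* (0.93) and *Rassf6* (0.90), and *Gcnt1* was nearest to *Tcerg1l* (0.84), *Oit1* (0.82) and *Fut7* itself (0.79). *Glycam1* was nearest to *Cd247* (0.90), *Hap1* (0.81) and *Nefh* (0.80), and *Chst2* to *Galnt12* (0.78), *Prr5l* (0.77) and *Fam167b* (0.72). The scaffolds and *B3gnt3* had other neighbours: *Podxl* was nearest to *Mgll* (0.91), *Adgrl4* and *Rasgrp3* (both 0.89), *Cd34* to *Gda* (0.87), *Ifi203* (0.85) and *Col15a1* (0.84), and *B3gnt3* to *2200002D01Rik* (0.82), *Prcp* (0.81) and *Insr* (0.78). *Fut4* was nearest to *Tnfrsf9* (0.84), followed by *Hamp* and *Nxpe2* (0.81). *Chst4*, with at most 7 UMIs in 1 sum, was too low for this measure.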

How the data were processed

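The deposited files hold UMI counts of each gene in each cell of 3 droplet 3′ RNA-seq libraries, which the authors made with Cell Ranger 3.0.2 on mm10 per the processing notes (the file header of EC-iCOUPOE replicate 1 names 3.1.0). Gene positions are those of the GRCm38 annotation and upstream sequences those of RefSeq.

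Barcodes entered the analysis with 500 or more genes, 1000 or more UMIs and no more than 10% of UMIs from mitochondrial genes (5473, 4750 and 1243 cells). Scrublet (scanpy 1.11.5, expected rate 6%) removed 138, 96 and 9 doublets at a score of 0.25, set after its own thresholds had marked 138, 6 and 6. Cells were clustered with Seurat 5.3.0 (2000 variable genes, reciprocal PCA, 30 components, 20 neighbours, resolution 1) without the members, the pathway genes, *Nr2f2* and sex-linked genes. A cluster was named after the list whose markers were most enriched in it, as a mean log2 ratio to the other cells (10 CPM added). After clusters had been seen, haemoglobin and platelet lists were barred from naming, and a blood endothelial cluster with a mean under 1 and no more of its own markers than of another list among its 10 leading genes stayed unnamed. Cells of mixed identity were left out.

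UMIs were summed by cell type and library, given exact Poisson intervals, and compared as ratios with exact conditional intervals. A call also required 10 cells in each library. Shares of thinned cells carry Clopper-Pearson intervals. No p-value was computed, because cells are not replicates. The calling code was tested on simulated data. The text names all members, the pathway genes called in CapEC, PCV or arterial EC or in HEC against PCV, the 3 genes most like each member, and *Madcam1* and *Nr2f2*; another reference gene is not reported here. HEC markers and pathway genes named for HEC between genotypes or for CRP were added after their values were seen. The members, lists and rules were chosen with earlier results of these data known. Alternatives covered TMM scaling (edgeR 4.0.16), UMI minimums, folds, resolutions, mitochondrial limits, doublets, thinning, single EC-iCOUPOE libraries and 5 choices added after seeing the data. Python 3.11.15 and R 4.3.3 were used.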

Additional observations from a re-analysis of the deposited data

Results flagged for a closer look

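*Chst2* had opposite directions in CapEC and arterial EC. The mean log2 ratio of the 2 EC-iCOUPOE libraries to the control library was 0.82 in CapEC and -2.23 in arterial EC, a difference of 3.05, with every library on its side of 0. The arterial values rested on 18, 2 and 1 UMIs, and the difference was not tested.

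*Cd34*, summed over each type, was lower in PCV and CapEC and higher in arterial EC and CRP in both EC-iCOUPOE libraries. Its mean log2 ratio was 0.29 in arterial EC and 0.23 in CRP, against -0.37 in PCV and -0.19 in CapEC. The differences came to 0.66 for arterial EC against PCV, 0.48 for arterial EC against CapEC, 0.60 for CRP against PCV and 0.42 for CRP against CapEC, and were not tested. These directions did not hold in every cluster. In CapEC without cluster 1 the ratios were -0.01 and -0.10, and in CapEC of cluster 3 alone the mean ratio was 0.20, with the sign turned. In arterial EC, cluster 11 held 696, 604 and 520 CPM, lower in both EC-iCOUPOE libraries, and cluster 5 held 259, 391 and 295 CPM. Cluster 11 made up 119 of 501, 85 of 208 and 59 of 115 arterial EC, and its part in the pooled value was not tested.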

How the results depend on the processing

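Of 180 ratios of named genes recomputed under the alternatives, 177 kept their sign. The spread (SD) between the EC-iCOUPOE libraries held 140 of them, and 40 moved beyond it. Part of this was fixed in advance. A changed UMI minimum leaves a ratio as it was. The ratio of a single EC-iCOUPOE library always lies within that spread of the mean. Both kinds of alternative are among the 180, so these counts overstate how stable the ratios were. That spread leaves out the error of the shared control library. *Chst2* in CapEC ranged from 0.27 to 1.15, *Fut4* in CapEC from -1.31 to -0.02 and *Cd34* in CapEC from -0.27 to 0.20. *B3gnt3* ranged from 1.55 to 2.15 in CapEC and from 1.81 to 3.03 in PCV. Counts of calls are small numbers limited by depth, since a call needs 50 UMIs. The share of all genes called was not recomputed for the alternatives, so their counts have no such share beside them. Thinning to 1000 UMIs and leaving out EC-iCOUPOE replicate 1, the deeper library, bring *B3gnt3* under that minimum, and then 0 members were higher in CapEC and 0 in PCV. Cluster 3 alone also gave 0 members higher in CapEC, and 0 pathway genes lower. Subtracting the *Glycam1* background gave no ratio in CapEC, PCV, arterial EC or CRP, since no EC-iCOUPOE level there was above the value used for its library. That value was 784 CPM in EC-iCOUPOE replicate 1, the median of lymphocytes (1568 CPM) and smooth muscle (1.07 CPM) alone, and 0 in replicate 2. It therefore could not serve as a background for replicate 1. Control arterial EC (147 CPM) and CRP (192 CPM) also lay below the control background. The background of the control library ranged from 194 to 245 CPM (196 as reported). No paired analysis was possible because the control group had 1 library.

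In CapEC (reported: 1 member higher and 1 lower, 2 pathway genes higher and 2 lower), a 10-UMI minimum gave 2 members lower and 5 pathway genes higher, and no minimum gave 3 members lower and 5 pathway genes higher. A 1.5-fold rule gave 2 members higher, 2 lower and 4 pathway genes higher. Thinning gave 1 pathway gene higher and 0 lower, and resolution 0.6 and CapEC without cluster 1 each gave 1 pathway gene lower. Leaving out 1 library gave 0 to 1 members higher.

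In PCV (1 member higher and 1 lower, 1 pathway gene higher and 0 lower), pathway genes higher came to 2 with TMM scaling, no minimum, resolution 0.6, doublets kept, a 5% mitochondrial limit or cluster 9 counted as PCV, to 4 with 1.5-fold and to 0 with thinning. Pathway genes lower came to 2 with a 10-UMI minimum or none and to 1 with 1.5-fold. Leaving out 1 library gave 0 to 1 members higher, 1 to 2 members lower, 0 to 1 pathway genes higher and 0 to 1 lower.

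In arterial EC (0 members higher and 1 lower, 1 pathway gene higher and 0 lower), a 10-UMI minimum or none gave 1 member higher and 2 lower, thinning gave 0 pathway genes higher, and doublets kept or 1.5-fold gave 1 pathway gene lower, with 0 to 1 when 1 library was left out. In CRP (0 members higher and 1 lower, 1 pathway gene higher and 0 lower), a 10-UMI minimum or none gave 1 member higher, 3 pathway genes higher and 1 lower, 1.5-fold gave 2 members lower and 2 pathway genes higher, and thinning gave 0 members lower. In HEC against PCV (5 members higher and 1 lower), thinning gave 2 higher and 0 lower, and cluster 7 counted as HEC gave 0 lower. Against CapEC (4 higher), thinning gave 2 higher.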
